A study of Homo sapiens with 9 samples.

Results

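RBM3, CIRBP, HSF1 and 7 heat shock genes were described in PC-3 cells treated with decitabine, alone or together with S-adenosylmethionine (SAM). The 10 genes were picked by symbol out of the 60617 Ensembl genes in the count tables, and they were picked with expression values of the same libraries known. Their levels and changes are therefore given as a description. Calls of the fit across all genes are stated for them as part of that description and support nothing, and p-values are given only for related genes outside the 10. PC-3 is an established line from a bone metastasis of a prostate carcinoma, and decitabine is a cytidine analogue that traps DNA methyltransferases, while SAM is the methyl donor that these enzymes use.

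The 9 RNA-seq libraries formed 3 groups of 3. The control cells received vehicle, the decitabine cells received 1 µM decitabine, and the cells of the combination treatment received 1 µM decitabine with 200 µM SAM, according to the methods of the study. The labels give 5 days of treatment for each group. The study also used SAM by itself, and such libraries are not analysed here. All cells came from 1 line, and no label states whether replicates were separate cultures, so the spread between libraries may be technical. Each library held between 21934307 and 22489684 estimated counts. Of the epithelial markers, KRT8, KRT18 and KRT19 were at 107 CPM or more (counts scaled to a common total per library) in each library, EPCAM was at 15.8 to 25.6 CPM and CDH1 at 1.78 to 18 CPM, whereas KLK3, a marker of luminal prostate cells, had no counts. The summed level of the leukocyte markers was at most 0.1 CPM in the controls and at most 1.65 CPM after treatment, with PTPRC at 30 counts or fewer and CD3E at 2 or fewer. The summed level of the endothelial markers was 9.88 to 10.6 CPM in the controls and 31 to 43.8 CPM after treatment, most of it PECAM1, with VWF at 21 counts or fewer and CDH5 at 10 or fewer. Mitochondrially encoded genes took 3.78% to 4.73% of counts in the controls, 1.55% to 2.20% after decitabine and 2.43% to 3.79% after the combination treatment. The part of these markers and shares in the results was not tested. In bulk RNA, fewer cells with a transcript and less of it per cell cannot be told apart.

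Cells answer heat with the heat shock response, in which the transcription factor HSF1 is released from chaperones, forms trimers and binds heat shock elements, which are inverted repeats of the letters GAA. The chaperones made in this way hold unfolded proteins and help them to refold. Mild cold acts in another direction and raises a small set of RNA-binding proteins, of which CIRBP and RBM3 are the best known. Both carry an RNA recognition motif, bind mRNAs and influence their stability, translation and splicing. Cancer cells often keep high chaperone levels in the absence of heat.

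The promoters are shown first because heat shock elements are the sequence by which HSF1 recognises its genes. RefSeq promoters of 300 bases, from 250 before to 50 after a transcription start on GRCh38.p14, were searched for the pairs GAANNTTC and TTCNNGAA and for triples, in which the units GAA, TTC and GAA or the units TTC, GAA and TTC follow each other at 2 bases of any kind. Each pair is its own reverse complement and the kinds of triple are those of one another, so both strands were covered, and a triple also counts as 2 overlapping pairs. Of 35116 promoters, 13.49% held a pair and 0.49% held a triple. The 9 genes other than HSF1 had 12 promoters. Of these, 8 promoters from 7 genes held a pair and 2 held a triple. CIRBP and HSPH1 had no match in this window. All windows of CIRBP, HSPA8 and DNAJB1 lay inside the GENCODE span of the gene given below. The outer starts of those spans were not searched. Matches are given in capitals, and each sequence reads 5′ to 3′ on the strand of its gene. A match describes letters and does not show binding.

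The RBM3 promoter held 3 pairs, of which the first 2 lay in a repeat at X:48574289-48574357 and the other at X:48574439-48574468, both on the plus strand.
RBM3 upstream: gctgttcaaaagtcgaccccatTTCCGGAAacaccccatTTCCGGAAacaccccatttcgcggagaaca
RBM3 near start: acgcgcaagggGAACGTTCcgggacgttct

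The promoters of HSPA1A, at 6:31815415-31815466, and of HSPA1B, at 6:31827611-31827662, held the same pair in almost the same stretch on the plus strand.
HSPA1A: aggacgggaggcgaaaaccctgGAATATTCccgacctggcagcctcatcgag
HSPA1B: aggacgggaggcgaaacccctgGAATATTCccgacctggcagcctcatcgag

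HSPA8 held a triple at 11:123062346-123062375 and another at 11:123062171-123062200. The second of the HSP90AA1 promoters held a triple and a pair at 14:102087083-102087154. All 3 stretches lie on the minus strand. Both HSPA8 stretches, and the RBM3 stretch near the start, overlap annotated exons. Upstream refers to the RefSeq start used here.
HSPA8 upstream: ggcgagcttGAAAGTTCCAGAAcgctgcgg
HSPA8 near start: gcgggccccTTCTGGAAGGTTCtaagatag
HSP90AA1: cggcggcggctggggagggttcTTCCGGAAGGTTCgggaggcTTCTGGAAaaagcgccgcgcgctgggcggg

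The second DNAJB1 promoter held 2 pairs at 19:14518415-14518496 on the minus strand, and HSPB1 held 1 pair at 7:76302469-76302520 on the plus strand.
DNAJB1: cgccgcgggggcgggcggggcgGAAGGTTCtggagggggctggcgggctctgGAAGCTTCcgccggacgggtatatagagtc
HSPB1: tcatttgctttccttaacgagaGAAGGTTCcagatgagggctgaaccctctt

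CpG dinucleotides, the bases at which DNA methyltransferases act, numbered 15 to 49 in the 12 promoters with a median of 23.5. Over all promoters the median was 14 and the quartiles were 4 and 28. RBM3 had 24 CpGs and CIRBP had 37. Methylation of these promoters was not analysed here.

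The genes lie on 8 chromosomes. In GENCODE release 44 on GRCh38, RBM3 (ENSG00000102317) spans X:48574449-48581162 on the plus strand and CIRBP (ENSG00000099622) spans 19:1259384-1274880 on the plus strand. HSF1 (ENSG00000185122) spans 8:144291591-144314720 on the plus strand. HSPA1A (ENSG00000204389) and HSPA1B (ENSG00000204388) are neighbours at 6:31815543-31817946 and 6:31827738-31830254, both on the plus strand. HSPA8 (ENSG00000109971) spans 11:123057489-123063230 and HSPH1 (ENSG00000120694) spans 13:31134973-31162388, both on the minus strand. DNAJB1 (ENSG00000132002) spans 19:14514769-14560391 and HSP90AA1 (ENSG00000080824) spans 14:102080742-102139699, also on the minus strand. HSPB1 (ENSG00000106211) spans 7:76302673-76304295 on the plus strand.

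All 10 genes passed the filter on low counts. Levels below are in CPM after TMM scaling, which corrects library size for the composition of each library. RBM3 fell into 3 separate ranges. It stood at 638, 710 and 592 CPM in the controls, at 304, 392 and 253 CPM after decitabine, and at 215, 238 and 211 CPM after the combination treatment. The groups did not overlap, and the highest library of the combination treatment was below the lowest of decitabine alone. The means were 647 ± 59.4, 316 ± 70.2 and 221 ± 14.3 CPM (SD, n = 3).

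CIRBP, the closest relative of RBM3 among the 10, gave another pattern. It stood at 127, 129 and 109 CPM in the controls, at 73.1, 70 and 66.1 CPM after decitabine, and at 78.4, 75 and 64.9 CPM after the combination treatment. Both treated groups were below every control, and they overlapped each other. On the log2 scale the difference from the controls was -0.80 ± 0.09 (SE) for decitabine and -0.74 ± 0.09 for the combination treatment, against -1.03 ± 0.13 and -1.55 ± 0.14 for RBM3. Between the treatments, the combination minus decitabine difference was 0.06 ± 0.09 for CIRBP and -0.51 ± 0.13 for RBM3. The RBM3 difference between the treatments lay between -0.65 and -0.33 when single libraries were left out. It was no longer called by edgeR without decitabine replicate 1 (-0.54) or 2 (-0.33) or without combination replicate 1 (-0.50), 2 (-0.57) or 3 (-0.48). Over the alternatives the difference from control ranged from -1.22 to -0.79 after decitabine and from -1.61 to -1.33 after the combination treatment for RBM3, and from -0.89 to -0.56 and from -0.82 to -0.52 for CIRBP. In RBM3, 25.5% of the 31-base words of the main transcript also occur in other genes, and in CIRBP none do. The largest share for RBM3, 9.33%, was with ENSG00000228343, an overlapping antisense gene without counts in any library.

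**Figure D1:**
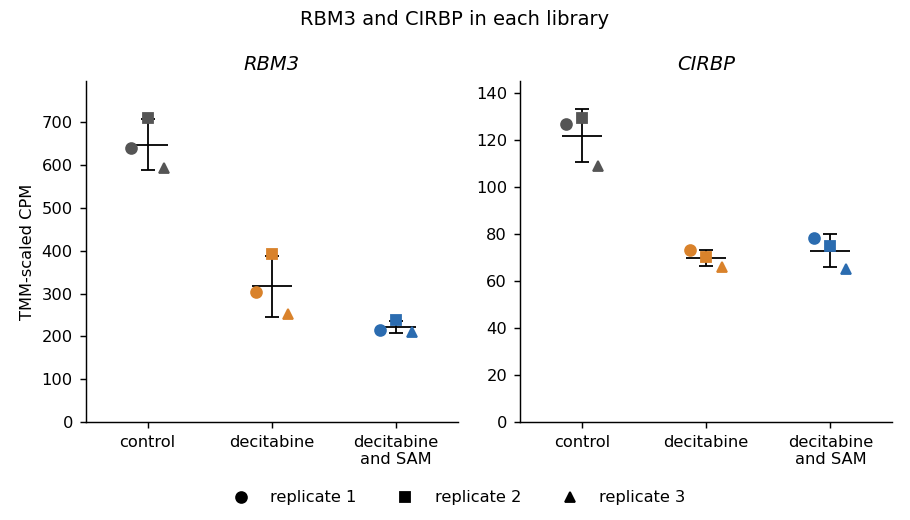
TMM-scaled CPM of RBM3 and CIRBP in each of the 9 libraries, with a point per library shaped by replicate number, a line at the mean of 3 libraries and bars for the SD. RBM3 forms 3 separate ranges, whereas for CIRBP both treated groups lie below the controls and overlap each other.

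HSF1, the main transcription factor of the heat shock response, stood at 479, 485 and 440 CPM in the controls. It stood at 340, 371 and 397 CPM after decitabine and at 413, 413 and 389 CPM after the combination treatment. Every treated library was below every control, and the treated groups overlapped. The log2 difference from control was -0.34 ± 0.08 for decitabine and -0.21 ± 0.08 for the combination treatment, but with library size as the only scaling these values were -0.09 and 0.01. After the combination treatment the call was also lost without control replicate 1 (-0.20) or 2 (-0.19) or combination replicate 3 (-0.18). HSF1 overlaps DGAT1 on the opposite strand, whose counts came to 63.3% of those of HSF1. Of the 31-base words of HSF1, 5.09% also occur in DGAT1, and whether strand was used in counting is not given in the sources used here.

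The inducible chaperones HSPA1A and HSPA1B encode nearly identical HSP70 proteins that bind unfolded stretches of protein. HSPA1A stood at 116, 190 and 249 CPM in the controls, at 184, 181 and 213 CPM after decitabine, and at 241, 240 and 234 CPM after the combination treatment. HSPA1B stood at 84.9, 127 and 182 CPM in the controls, at 105, 124 and 148 CPM after decitabine, and at 147, 134 and 161 CPM after the combination treatment. For both genes the controls spanned the range of the treated libraries. The combination treatment lay above decitabine without overlap for HSPA1A and overlapped it for HSPA1B.

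The 2 genes share most of their sequence, so the split of reads between them is uncertain. Of the 31-base words in the main transcript, 76.9% of those in HSPA1A also occur in HSPA1B, and 73.3% of those in HSPA1B occur in HSPA1A. Summed, they stood at 201, 317 and 431 CPM in the controls, at 289, 306 and 361 CPM after decitabine, and at 389, 374 and 396 CPM after the combination treatment. The log2 differences of the sum from control were 0.01 ± 0.25 and 0.29 ± 0.25, within the spread of the controls.

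HSPA8, the constitutive HSP70 of the cytosol, was the chaperone with the largest difference from control. It stood at 1280, 1797 and 2107 CPM in the controls, at 1171, 1095 and 1178 CPM after decitabine, and at 1145, 1101 and 1135 CPM after the combination treatment. All treated libraries were below all controls, but the controls differed among themselves by 1.65-fold. The log2 difference was -0.59 ± 0.14 for decitabine and -0.62 ± 0.14 for the combination treatment. It lay between -0.78 and -0.43 and between -0.80 and -0.46 when single libraries were left out, and with library size alone the decitabine value was -0.34 and not called. In HSPA8, 45% of the 31-base words also occur in other genes, and the largest share with 1 gene was 17.05%, with the pseudogene HSPA8P1.

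HSPB1, a small heat shock protein that holds unfolded clients without using ATP and shares 22.5% of its 31-base words with other genes, stood at 346, 375 and 377 CPM in the controls. It stood at 257, 269 and 293 CPM after decitabine and at 326, 322 and 266 CPM after the combination treatment. Every treated library was below every control. The log2 difference was -0.42 ± 0.09 and -0.27 ± 0.09, and with library size alone it was -0.18 and -0.05, neither of which was called. Without combination replicate 3 the HSPB1 difference after the combination treatment was -0.18 and no longer called, and that between the treatments went from 0.16 to 0.25 and was called.

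HSPH1, an HSP110 protein that exchanges nucleotide on HSP70, stood at 271, 324 and 382 CPM in the controls, at 332, 335 and 331 CPM after decitabine, and at 364, 360 and 343 CPM after the combination treatment. DNAJB1, the J-domain partner that brings clients to HSP70, stood at 213, 246 and 302 CPM in the controls, at 216, 209 and 254 CPM after decitabine, and at 237, 228 and 245 CPM after the combination treatment. HSP90AA1, the inducible cytosolic HSP90, stood at 2886, 3112 and 3511 CPM in the controls, at 3121, 2768 and 2636 CPM after decitabine, and at 3259, 2959 and 2830 CPM after the combination treatment. In all 3 genes the treated libraries overlapped the controls. The log2 difference from control after decitabine and after the combination treatment was 0.03 ± 0.10 and 0.13 ± 0.10 for HSPH1, -0.17 ± 0.11 and -0.10 ± 0.11 for DNAJB1, and -0.16 ± 0.09 and -0.07 ± 0.09 for HSP90AA1. With library size alone, the DNAJB1 and HSP90AA1 values turned positive, at 0.08 and 0.12 for DNAJB1 and at 0.09 and 0.15 for HSP90AA1, and the HSPH1 values became 0.28 and 0.35 and were called. Calls also appeared for DNAJB1 after decitabine without control replicate 1 (-0.29) and for HSPH1 after the combination treatment without control replicate 3 (0.25). Without the filter on low counts, DNAJB1 (-0.21) and HSP90AA1 (-0.20) were called lower after decitabine, so that 7 of the 10 genes were called in place of 5. Over all genes, 8085 of 37784 were called higher and 6478 lower in that fit. The antisense neighbour TECR held counts equal to 59.9% of those of DNAJB1, while 7.87% of the 31-base words of DNAJB1 occur elsewhere, in the pseudogene DNAJB1P1. The share of words found in other genes was 39.5% for HSP90AA1 and 0.48% for HSPH1.

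**Figure D2:**
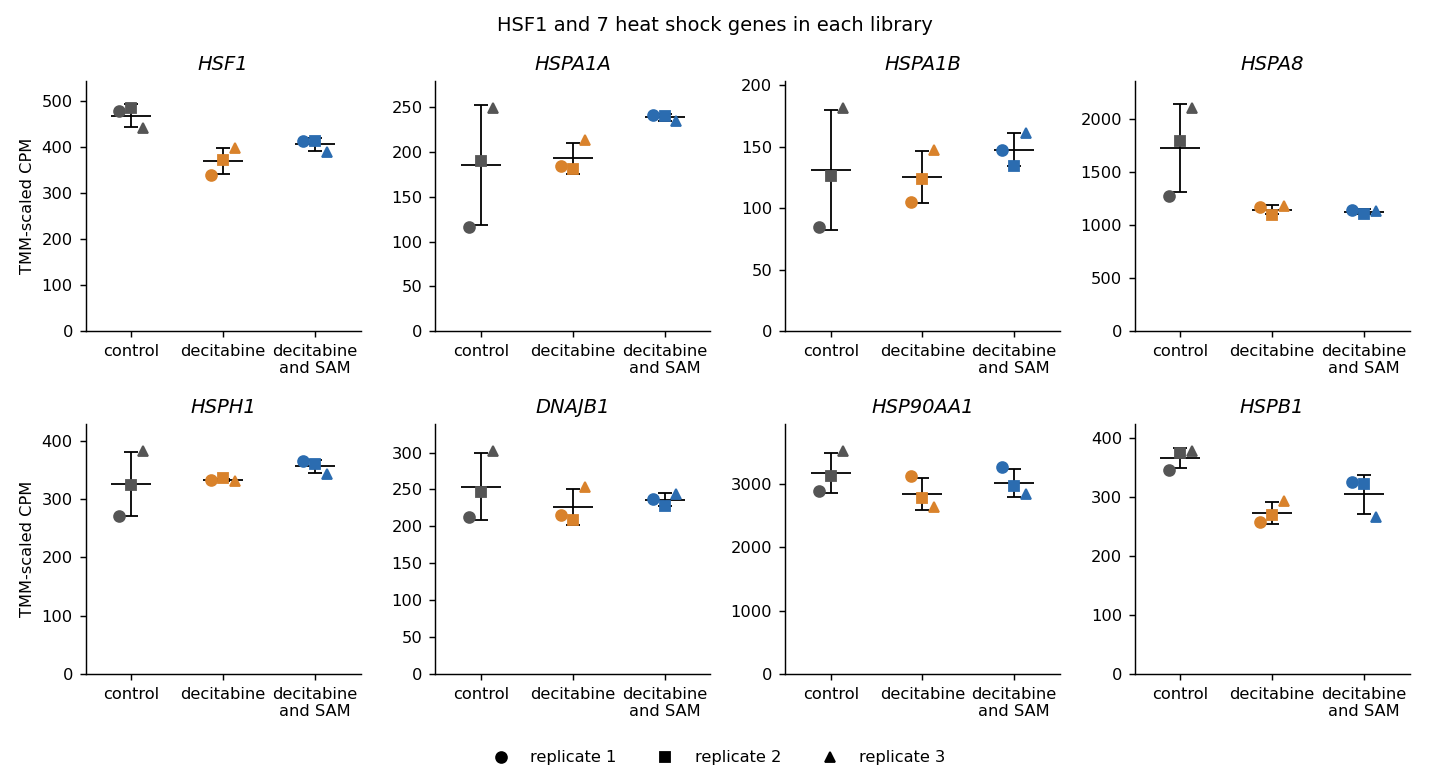
TMM-scaled CPM of HSF1 and the 7 heat shock genes in each of the 9 libraries, with a point per library shaped by replicate number, a line at the mean of 3 libraries and bars for the SD. The controls are spread widest for HSPA1A, HSPA1B and HSPA8, and HSF1, HSPA8 and HSPB1 lie below the controls in every treated library.

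Of the 10 genes, 5 were called lower after decitabine and none higher by edgeR at an adjusted p under 0.05, while of the 18532 genes tested 68.8% were called, 32.5% lower and 36.3% higher. The 5 were RBM3, CIRBP, HSF1, HSPA8 and HSPB1. The same 5 were called lower after the combination treatment, where 67.2% of all genes tested were called, 31.3% lower and 35.9% higher. Both comparisons share the control libraries. The same 5 genes, and no others of the 10, had treated libraries that did not overlap the controls, all of them lower. After decitabine the groups did not overlap in 72.9% of all genes, 34.8% lower and 38.1% higher, and after the combination treatment in 71.6%, 33.6% lower and 38% higher. Between the treatments only RBM3 was called, and it was lower with SAM, as were 8.02% of genes tested, while 7.67% were higher and 15.7% were called in all. RBM3 was also the only one of the 10 to lie lower without overlap there, as did 16.8% of genes, and HSPA1A and HSPH1 lay higher without overlap, as did 17.2%, out of 34% without overlap in either direction. The median log2 difference of the 10 genes was -0.26, -0.16 and 0.10 in the 3 comparisons, beside 0.035, 0.048 and 0.002 over all genes tested. With library size alone, the all-gene medians against control moved to 0.281 and 0.268. The TMM factors were 0.895 to 0.902 in the controls and 1.033 to 1.078 in the treated libraries. Since the genes were picked with these values known, nothing is read from these counts.

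**Figure D3:**
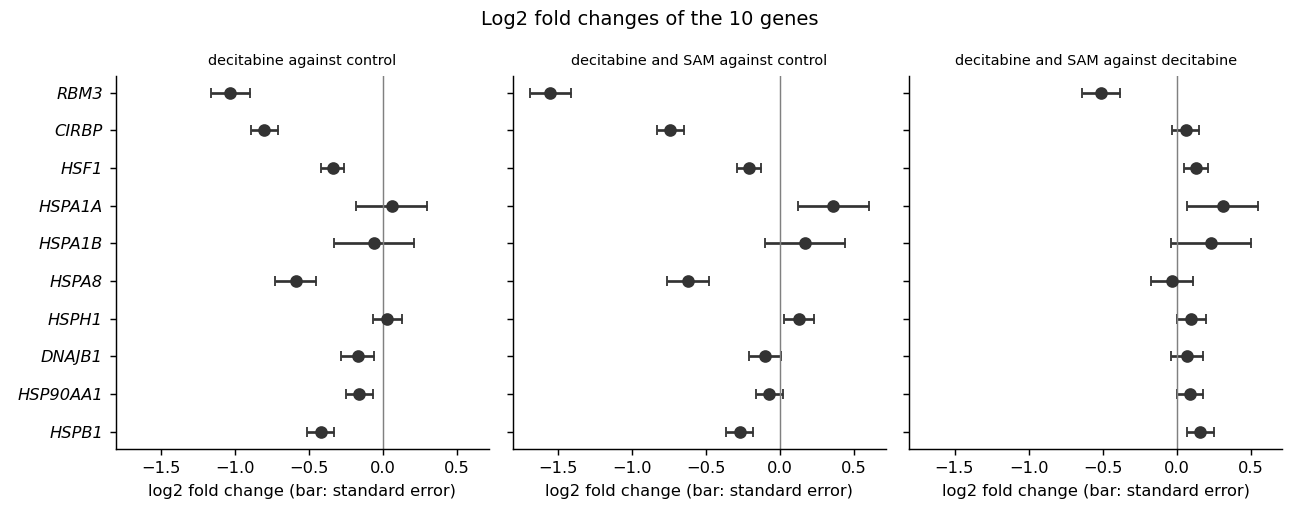
Log2 fold changes of the 10 genes in the 3 comparisons, a point per gene with a bar for the standard error from edgeR. RBM3 has the lowest value in each comparison, and the bars of HSPA1A and HSPA1B are the widest.

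Levels were compared between genes per kilobase of the main transcript. In the controls HSP90AA1 was highest at 982 ± 98.1 CPM per kilobase, followed by HSPA8 at 763 ± 184, HSPB1 at 471 ± 22.2, HSF1 at 219 ± 11.3 and RBM3 at 150 ± 13.8. DNAJB1 followed at 113 ± 20.1, HSPA1A at 77.2 ± 27.7, HSPH1 at 62.1 ± 10.6, HSPA1B at 52.1 ± 19.3 and CIRBP at 36.4 ± 3.34. The SDs of HSP90AA1 and HSPA8 overlapped, as did those of each pair of neighbours from DNAJB1 down to CIRBP. RBM3 took rank 5 of 10 in the controls, rank 7 after decitabine at 73.6 CPM per kilobase and rank 9 after the combination treatment at 51.5. With the union of all exons as the length, these ranks were 4, 6 and 8. The order of other genes in the controls also moved with that length, with DNAJB1 at 31 CPM per kilobase below HSPA1A at 77.1, HSPA1B at 52.1 and HSPH1 at 38.8, and HSF1 at 88.2 below RBM3 at 111. CIRBP was at rank 10 in each group, at 36.4, 20.8 and 21.8 CPM per kilobase. Together the 10 genes took 0.577% to 0.744% of all counts in the controls, 0.614% to 0.645% after decitabine and 0.628% to 0.663% after the combination treatment, so the treated ranges lay within that of the controls.

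The controls differed from each other in the heat shock genes. All 7 were lowest in control replicate 1 and highest in control replicate 3, an order that 24.4% of 5129 genes averaging 1000 counts or more in the controls also had. This comparison was chosen after the values were seen. The median log2 ratio of control replicate 3 over replicate 1 was 0.51 for the 7 heat shock genes and -0.01 for the 5129 genes, whose 95th percentile was 0.26. HSPA1A and HSPA1B took ranks 1 and 2 of the 5129 at a log2 ratio of 1.10, HSPA8 took rank 7 at 0.72, and DNAJB1 and HSPH1 took ranks 27 and 33 at 0.51 and 0.49. HSP90AA1 stood at rank 203 with 0.28 and HSPB1 at rank 974 with 0.12.

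RBM3, CIRBP and HSF1 went the other way, with log2 ratios of -0.11, -0.22 and -0.12, and each was lowest in control replicate 3, as were 37.5% of the genes. The range over the 3 controls had a median of 0.39 on the log2 scale for the 10 genes and of 0.14 for the 5129 genes. After decitabine these medians were 0.23 and 0.16, the latter over 5450 genes, and after the combination treatment 0.14 and 0.18, the latter over 5348 genes. The mitochondrially encoded genes took 3.78%, 4.40% and 4.73% of counts in control replicates 1, 2 and 3. Their part in the order of the controls was not tested. Without control replicate 3, the difference between the combination treatment and the controls was 0.63 for HSPA1A and was called, and without single libraries it ranged from 0.11 to 0.63. Between the treatments the HSPA1A difference of 0.31 ± 0.24 was called without control replicate 1 and with only the 6 libraries compared (0.30).

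**Figure D4:**
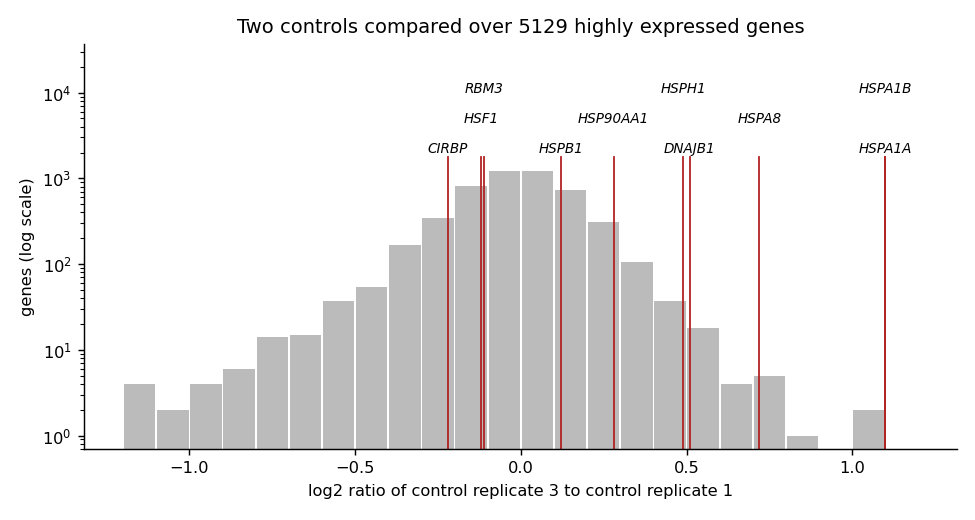
Number, on a log scale, of 5129 highly expressed genes by the log2 ratio of control replicate 3 over control replicate 1, with the 10 genes marked by red lines and ratios beyond the ends placed in the end bins. HSPA1A and HSPA1B stand at the upper end at 1.10, and RBM3, CIRBP and HSF1 lie below 0.

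Lists of related genes place the 10 in their pathways. Of 122 listed genes outside the 10, 117 were tested with edgeR. After decitabine 27 of them (23.1%) rose and 62 (53%) fell, with a median log2 change of -0.24, beside 36.3% and 32.5% of all genes tested and a median of 0.035. After the combination treatment 28 (23.9%) rose and 55 (47%) fell, with a median of -0.18, beside 35.9% and 31.3% and a median of 0.048. These all-gene shares are the background for each list below. Most genes named from the lists were picked as called and without overlap, after the combination treatment or between the treatments. In the comparison that picked a gene, its call and its lack of overlap follow from that rule. Among the listed genes, 9 averaged under 10 counts in the controls, so they passed the filter only through treated libraries and could only rise, which all 9 did. With library size alone, 41 of the 117 were higher and 46 lower after decitabine. After the combination treatment 47 were higher and 35 lower. Over all 18532 genes tested, this scaling gave 8849 higher and 3746 lower, and 8695 higher and 3857 lower. These are the background for the counts with library size alone below. Between the treatments 20 listed genes (17.1%) were higher with SAM and none was lower, with a median of 0.09. Over all genes 7.67% were higher and 8.02% lower, with a median of 0.002. The count of higher listed genes ranged from 7 to 34 when single libraries were left out. It was 7 without decitabine replicate 2 or combination replicate 2, where 408 of 18961 and 381 of 19001 genes tested were higher. It was 34 without combination replicate 3, where 2066 of 18939 were higher.

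HSF1 was listed with its relatives and regulators, of which 7 were tested. Of these, 4 rose and 1 fell after decitabine, and 4 rose and none fell after the combination treatment (with library size alone, 4 and 0, and 6 and 0). Those that rose include HSF5, named here after its values were seen, which averaged under 10 counts in the controls and could only rise. HSF2BP, which binds HSF2 and acts in meiotic recombination, had 2.19 CPM in the controls and 3.81 after the combination treatment, a log2 change of 0.80 ± 0.17 (adjusted p = 0.00094, edgeR). IER5, an immediate early protein that promotes dephosphorylation of HSF1, rose from 44 to 58.4 CPM by 0.41 ± 0.1 (adjusted p = 0.0019, edgeR).

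In the family of HSPA1A and HSPA8, 4 of 9 genes rose and 3 fell after decitabine, and 3 rose and 2 fell after the combination treatment (with library size alone, 4 and 3, and 5 and 1). Those that rose include HSPA12B, named here after its values were seen, which averaged under 10 counts in the controls and could only rise. HSPA2, the HSP70 of spermatogenesis, stood at 8.59, 8.6 and 10.5 CPM in the controls, at 29.7, 31.4 and 29.8 CPM after decitabine, and at 43.3, 43.3 and 37.8 CPM after the combination treatment. The groups did not overlap. It rose by 1.72 ± 0.1 and 2.17 ± 0.1 on the log2 scale (adjusted p = 3.9e-09 and 4.1e-10, edgeR), and the treatments differed by 0.45 ± 0.09 (adjusted p = 0.0058). HSPA1L, a neighbour of HSPA1A and HSPA1B, had 1.18 CPM in the controls and 3.79 CPM after the combination treatment, a change of 1.68 ± 0.25 (adjusted p = 3.7e-05, edgeR). HSPA4L, an HSP110 protein related to HSPH1, was at 40 ± 4.78 CPM in the controls, 23.4 ± 2.09 after decitabine and 33.8 ± 3.45 after the combination treatment. It fell after decitabine by 0.77 (adjusted p = 1.7e-05, edgeR) and was higher with SAM than without by 0.53 ± 0.11 (adjusted p = 0.0062).

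Among co-chaperones of HSP70, 1 of 9 rose and 5 fell in both comparisons with control. With library size alone the counts were 4 and 2 after decitabine and 3 and 3 after the combination treatment. The balance over all genes moved towards higher there too, as given above. BAG3, an HSF1 target that links HSP70 to autophagy and to HSPB1-like proteins, stood at 175, 207 and 201 CPM in the controls, at 89.8, 89.5 and 91.7 CPM after decitabine, and at 99.9, 103 and 95.8 CPM after the combination treatment. Treated and control libraries did not overlap. BAG3 changed by -1.10 ± 0.07 and -0.96 ± 0.07 (adjusted p = 1.5e-08 and 5.4e-08, edgeR). HSPBP1, a nucleotide exchange factor, changed by -0.99 ± 0.09 after decitabine and by -0.56 ± 0.09 after the combination treatment (adjusted p = 2.6e-07 and 5.7e-05, edgeR), and the treatments differed by 0.43 ± 0.09 (adjusted p = 0.0073).

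The J-domain proteins, the family of DNAJB1, counted 23 tested genes, of which 6 rose and 13 fell after decitabine and 5 rose and 9 fell after the combination treatment. With library size alone the counts were 9 and 6, and 9 and 3. The balance over all genes also moved towards higher with that scaling, as given above. DNAJA4 went from 4 counts over the 3 controls to 1437 counts after decitabine and 1582 after the combination treatment. Its log2 changes were 8.14 ± 0.28 and 8.32 ± 0.27. DNAJA4 averaged under 10 counts in the controls and could only rise, so no p-value is given for it. DNAJB4, a close relative of DNAJB1, rose from 9.53 to 27.3 CPM after the combination treatment by 1.51 ± 0.15 (adjusted p = 1.7e-06, edgeR). DNAJC17, a J-domain protein of the nucleus, changed by -1.28 ± 0.12 and -0.65 ± 0.11 from control, and the treatments differed by 0.63 ± 0.12 (adjusted p = 0.0048, edgeR).

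Among HSP90 and its co-chaperones, 1 of 14 genes rose and 8 fell after decitabine, and 4 rose and 8 fell after the combination treatment. These counts were 5 and 7, and 5 and 3, with library size alone. CHORDC1, an HSP90 co-chaperone, stood at 70, 79.4 and 96 CPM in the controls, at 88.9, 87.1 and 95.4 CPM after decitabine, and at 141, 132 and 113 CPM after the combination treatment. The combination libraries lay above all others. The change was 0.15 ± 0.11 for decitabine (adjusted p = 0.25, edgeR) and 0.66 ± 0.11 for the combination treatment (adjusted p = 0.00012), and the treatments differed by 0.51 ± 0.11 (adjusted p = 0.0084). CDC37L1, a relative of the kinase co-chaperone CDC37, changed by 0.65 ± 0.14 after the combination treatment (adjusted p = 0.00079, edgeR).

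Of 9 listed small heat shock proteins, the family of HSPB1, 6 were tested. HSPB2, HSPB6 and HSPB7 averaged under 10 counts in the controls and could only rise, as they did in both comparisons, so no median is given. The other 3 were CRYAB, HSPB8 and HSPB11, of which the last is named here after its values were seen, as is HSPB8. HSPB8, a partner of BAG3, rose from 21.7 CPM in the controls to 30.3 and 31.7 CPM, by 0.48 ± 0.11 and 0.55 ± 0.11 (adjusted p = 0.0011 and 0.00042, edgeR). HSPB11, which GENCODE annotates as IFT25 and not by a heat shock name, was at 38.2, 34.5 and 37.5 CPM in the 3 groups and was not called. CRYAB, the αB-crystallin of lens and muscle, stood at 0.447, 0.951 and 1.33 CPM in the controls, at 9.81, 17.3 and 17.1 CPM after decitabine, and at 12.2, 14.7 and 16.4 CPM after the combination treatment. It rose by 4.01 ± 0.33 and 3.98 ± 0.33 (adjusted p = 1.6e-06 and 1.8e-06, edgeR). HSPB6, a small heat shock protein of muscle, had 11 counts over the controls, 236 after decitabine and 193 after the combination treatment. Its changes were 4.15 ± 0.39 and 3.9 ± 0.4.

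Mitochondrial chaperones and proteases fell in 11 of 13 tested genes and rose in 1 after decitabine, and fell in 10 and rose in none after the combination treatment, with median log2 changes of -0.66 and -0.64. By library size alone 9 fell and 1 rose, and 8 fell and 2 rose. Counts of mitochondrially encoded genes also took a smaller share in both treated groups on average, as given above, and their part here was not tested. LONP1, an ATP-dependent protease of the matrix, stood at 557, 496 and 479 CPM in the controls, at 165, 166 and 159 CPM after decitabine, and at 198, 195 and 171 CPM after the combination treatment. It changed by -1.64 ± 0.08 and -1.44 ± 0.08 (adjusted p = 7.5e-10 and 2.7e-09, edgeR). TRAP1, the HSP90 of mitochondria, changed by -1.17 ± 0.08 and -1.15 ± 0.08 (adjusted p = 1.3e-08 and 1.6e-08, edgeR). CLPP, another matrix protease, differed between the treatments by 0.37 ± 0.09 (adjusted p = 0.017, edgeR), a call that was lost without decitabine replicate 1 or 2 or combination replicate 1 or 2.

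The chaperonin TRiC and prefoldin, which fold actin and tubulin, fell in 10 of 15 genes and rose in none after decitabine, and fell in 9 and rose in 1 after the combination treatment, with medians of -0.48 and -0.38. When scaled by library size alone, 8 fell and 1 rose, and 7 fell and 3 rose. The prefoldin subunits PFDN4 and PFDN2 changed by -1.09 ± 0.1 and -0.94 ± 0.09 after the combination treatment (adjusted p = 5e-07 and 6.7e-07, edgeR). PFDN5 differed between the treatments by 0.37 ± 0.1 (adjusted p = 0.024, edgeR), and this call was lost without decitabine replicate 2 or 3 or combination replicate 1 or 2.

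Cold shock domain proteins bind RNA by another fold than RBM3 and CIRBP. Of 7 tested genes, 3 rose and 3 fell in both comparisons with control. The 3 that rose were YBX2, LIN28B and CSDC2, each under 10 counts on average in the controls and so able only to rise, and CSDC2 is named here after its values were seen. YBX2, a Y-box protein of germ cells, had 6 counts over the controls, 106 after decitabine and 192 after the combination treatment. Its changes were 3.84 ± 0.39 and 4.73 ± 0.36. The treatments differed by 0.89 ± 0.23 (adjusted p = 0.018, edgeR), which was lost without decitabine replicate 1 or 2 or combination replicate 1 or 2. LIN28B, which blocks maturation of let-7 miRNAs, had 6 counts over the controls, 205 after decitabine and 150 after the combination treatment. Its changes were 4.78 ± 0.41 and 4.37 ± 0.42.

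CLK kinases are sensitive to body temperature and phosphorylate SR proteins, which act in splicing. Of 14 genes in this list, 2 rose and 8 fell after decitabine, and 2 rose and 9 fell after the combination treatment, with medians of -0.54 and -0.44. Scaling by library size alone gave 4 higher and 8 lower, and 4 higher and 7 lower. CLK4 stood at 12.8, 11.7 and 14.4 CPM in the controls, at 19.7, 16.2 and 23.1 CPM after decitabine, and at 30, 31.4 and 30.4 CPM after the combination treatment. The 3 groups did not overlap. CLK4 rose by 0.61 ± 0.12 and 1.24 ± 0.12 (adjusted p = 0.00049 and 5.8e-07, edgeR), and the treatments differed by 0.64 ± 0.12 (adjusted p = 0.0038). SRSF3, an SR protein, changed by -0.99 ± 0.1 and -1.0 ± 0.1 (adjusted p = 5.3e-07 in both, edgeR).

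**Figure D5:**
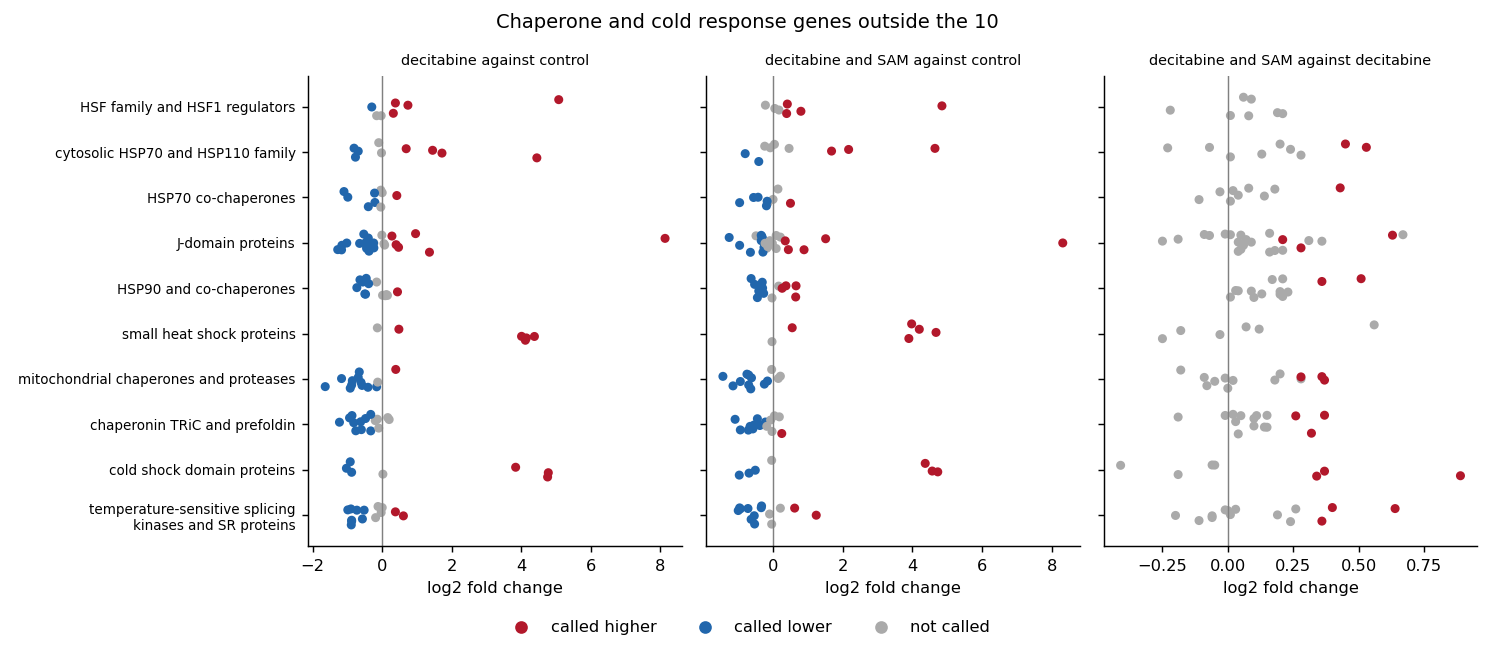
Log2 fold changes of the tested genes of the 10 lists in the 3 comparisons, a point per gene coloured by the edgeR call (red higher, blue lower, grey not called), with a narrower axis between the treatments. Points far to the right against control include CRYAB at 4.01 and 3.98 and DNAJA4 at 8.14 and 8.32. DNAJA4 averaged under 10 counts in the controls and could only rise. Mitochondrial chaperones and proteases have medians of -0.66 and -0.64.

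The genes whose levels followed RBM3 most closely over the 9 libraries, by Pearson's r of log2 CPM among 12209 genes, were MKS1 (0.992), ARHGAP39 (0.991), ZNF500 (0.99), DCTN1 (0.988) and AP3B1 (0.988). MKS1 stood at 37, 16.9 and 12.7 CPM in controls, decitabine and the combination treatment, and DCTN1 at 246, 161 and 140 CPM. For CIRBP they were RPL10 (0.996), MCTS1 (0.995), RPL35A (0.995), HMGN1 (0.994) and CERS2 (0.994), with RPL10 at 2030, 887 and 989 CPM. MKS1 and DCTN1 had the 3 group means in the same order as RBM3, and RPL10 had its 2 treated means near each other, as CIRBP did. The 9 points form 3 groups, so these coefficients mostly describe group means and are given without a test.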

How the data were processed

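RNA of 9 PC-3 cell libraries was sequenced by the authors on a BGISEQ-500. Reads were trimmed with Trim Galore 0.6.4 and counted with kallisto 0.4.6 against GRCh38.p13 per the submitters' processing notes, and the deposited files hold unnormalized estimated counts for each Ensembl gene. The deposited log2 CPM values were not used. The study's methods give kallisto under another version number, and the extraction text of the labels describes genomic DNA and bisulphite treatment although the libraries are of RNA. Strand use and multi-mapping settings are not given in the sources used here.

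The 10 genes, the gene lists and the alternatives were chosen with earlier results of these data known. Symbols were matched through GENCODE release 44 (60357 of 60617 identifiers) and, for HSPB11 (IFT25 there), through a RefSeq synonym. Counts were rounded, filtered with filterByExpr (18532 genes tested), scaled with TMM and fitted with the robust quasi-likelihood method of edgeR 4.0.16 in R 4.3.3, with 1 mean per group over all 9 libraries. Benjamini-Hochberg adjustment ran over all genes tested, with a threshold of 0.05. The authors used voom and limma, which was run as an alternative (limma 3.58.1), as was DESeq2 1.42.0. CPM per kilobase used the main GENCODE transcript. No 2 libraries of the same group were copies of one another by a chi-square comparison of counts, and pairs between groups were not compared. Standard errors come from the fit.

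Genes outside the 10 were named by a rule. From each list these were up to 2 genes with the largest absolute change after the combination treatment among called genes that averaged 50 counts or more in either group and did not overlap, and up to 1 by the same rule between the treatments. The 5 genes most like RBM3 and CIRBP were taken among genes averaging 100 counts or more. Promoter sequences are those of RefSeq, and the promoter of HSF1 was not used here. Each count file held 1 library, with 0 columns left unmapped. Some results on single genes outside the 10 are left out. The alternatives were other scalings, other tools, other filters, a fold threshold, only the 6 libraries compared, a replicate block and each library left out in turn.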

Additional observations from a re-analysis of the deposited data

How the results depend on the processing

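Of the log2 differences of the 10 genes under an alternative, 496 moved by less than the spread between replicates, 13 moved by more, each with library size alone, and 1 called value changed sign, which was HSF1 after the combination treatment against control at 0.01 with library size alone. With library size alone, 1 of the 10 genes was called higher and 2 lower after decitabine, 1 higher and 3 lower after the combination treatment, 41 listed genes were higher after decitabine, and 47 were higher and 35 lower after the combination treatment. Over all 18532 genes tested, that scaling gave 8849 higher and 3746 lower after decitabine and 8695 and 3857 after the combination treatment. With a threshold of 1 on the absolute log2 change, 1 of the 10 genes was called lower against control in both comparisons and 0 between the treatments, 13 listed genes were higher and 9 lower after decitabine, 14 higher and 5 lower after the combination treatment, and 0 higher between the treatments. No count over all genes is given at this threshold, so these counts have no background here and nothing is read from them. Between the treatments, with only the 6 libraries compared, 1 of the 10 was called higher and 1 listed gene lower, and without the filter on low counts and with the replicate block 1 listed gene was lower. Over all genes, 1000 of 18277 were higher and 1174 lower with only the 6 libraries. Without the filter 1829 of 37784 were higher and 1708 lower. When single libraries were left out, the combination treatment against control had 0 to 2 of the 10 genes higher, with 2 without control replicate 3, and 3 to 5 lower, with 3 without combination replicate 3. Over all genes tested, 6293 to 6809 were higher and 5409 to 5942 lower in those fits. Between the treatments there were 0 to 1 of the 10 higher and 0 to 1 lower, and 7 to 34 listed genes higher and 0 to 1 lower. Over all genes tested, 381 to 2066 were higher and 480 to 1997 lower there. Levels with library size alone were 580 CPM for RBM3 in the controls, 109 and 74.1 CPM for CIRBP in the controls and after decitabine, 420 and 423 CPM for HSF1 in the controls and after the combination treatment, and 249 CPM for HSPA1A after the combination treatment. They were 1220 and 1180 CPM for HSPA8 and 354 and 372 CPM for HSPH1 after decitabine and after the combination treatment, 247 CPM for DNAJB1 after the combination treatment, and 2840 CPM for HSP90AA1 and 328 CPM for HSPB1 in the controls.

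Libraries with the same replicate number did not clearly pair between treated groups and controls. Their deviations correlated at -0.01, -0.02 and 0.02 between decitabine and control, at 0.07, 0 and 0.06 between the combination treatment and control, and at 0.23, 0.04 and 0.23 between the treatments. Between the treatments, replicate 1 of either group correlated at -0.22 with replicate 3 of the other. The remaining unlike numbers there gave -0.04 to 0.01. With the replicate block, 6808 genes were higher and 6137 lower after decitabine, 6735 and 5938 after the combination treatment, and 1766 and 1890 between the treatments, against 6729 and 6030, 6647 and 5799, and 1421 and 1487 without it. With 3 libraries a group, HSPA1A and HSPA1B have the widest standard errors of the 10 genes against control, at 0.24 and 0.27. Those of HSPA8 were 0.14 in both comparisons, and those of RBM3 were 0.13 and 0.14. The cause of the changes listed here was not tested.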

Other observations

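Beside HSPA1A, HSPA1B and HSPA8, the 10 genes with the largest ratios of control replicate 3 over control replicate 1, among the 5129 genes averaging 1000 counts or more in the controls, included MALAT1, WASH5P, COL12A1, MT-ATP6, ADAM19 and MT-ND2. These were chosen after their values were seen. MT-ATP6 stood at 1240, 1390 and 2030 CPM in the controls, at 218, 196 and 158 CPM after decitabine, and at 519, 640 and 278 CPM after the combination treatment. COL12A1 stood at 71.2, 111 and 120 CPM in the controls. Among listed genes outside the 10, CHORDC1 took rank 42 with a log2 ratio of 0.46, DNAJA1 rank 47 with 0.45, AHSA1 rank 133 with 0.33 and HSPA4 rank 218 with 0.28. Of 10 HSP90 co-chaperones and HSP90 genes in that set, 7 were lowest in control replicate 1 and highest in control replicate 3, with a median log2 ratio of 0.19.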
